A study of Mus musculus with 12 samples.

Results

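UDP-glucuronosyltransferases (UGTs) and cytosolic sulfotransferases (SULTs), the enzymes that attach a sugar or a sulfate group to drugs, hormones, bilirubin and bile acids, were followed in mouse liver by bulk RNA-seq. The genes were all those whose symbol matched the Ugt1, Ugt2, Ugt3, Ugt8 or Sult naming pattern, pseudogenes left out, which gave 34 of the 24983 genes in the count table: 19 UGT genes and 15 SULT genes. The annotation holds 43 such symbols, and the other 9 (Sult1c1, Sult2a1, Sult2a4, Sult2a5, Sult2a6, Sult6b2, Ugt1a8, Ugt2a1 and Ugt2a2) were not analysed here. Livers came from 12 C57BL/6J mice, 1 library per mouse, in 4 groups of 3. The chow group ate a standard diet. The 3 other groups ate a NASH diet, meant to produce nonalcoholic steatohepatitis, with 40% of its calories from fat and added trans fat, fructose and cholesterol, for 24 weeks. Each of these mice also carried an osmotic minipump under the skin that released polyethylene glycol alone (vehicle group), oleic acid in that solvent (OA group) or its nitrated form (OA-NO2 group). Each fatty acid was infused at 5 mg/kg/day. No pump is named for the chow mice, so diet and pump cannot be told apart in any comparison with chow. The series asks what nitro-fatty acids do in diet-induced fatty liver.

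A UGT sits in the membrane of the endoplasmic reticulum and moves glucuronic acid from UDP-glucuronic acid to its substrate. A SULT works in the cytosol and takes its sulfate from the donor PAPS. Both reactions make the product more water-soluble, and transporters then carry it into bile or blood. Hepatocytes are the main site of both families in the body, with UGT2B and UGT1A enzymes and SULT1 and SULT2 enzymes as the chief hepatic classes. Nuclear receptors (PXR, CAR, FXR), the dioxin receptor AhR and the hepatocyte factors HNF1 and HNF4 are known to control them.

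Several of these genes are near copies, and the sequences below show how far single reads of 76 bases can tell the Ugt2b genes apart. Each line gives the first 60 coding bases, 5′ to 3′, from the GENCODE M21 transcript on GRCm38, with capitals where a gene differs from Ugt2b5.
Ugt2b5: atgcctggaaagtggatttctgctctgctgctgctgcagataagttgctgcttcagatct
Ugt2b38: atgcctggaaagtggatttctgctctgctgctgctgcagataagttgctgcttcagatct
Ugt2b37: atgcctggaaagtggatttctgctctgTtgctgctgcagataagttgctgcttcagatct
Ugt2b36: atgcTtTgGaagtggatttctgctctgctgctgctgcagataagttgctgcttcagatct
Ugt2b1: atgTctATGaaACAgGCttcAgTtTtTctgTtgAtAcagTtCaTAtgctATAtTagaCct
Ugt2b38 was identical to Ugt2b5 in this stretch, Ugt2b37 differed at 1 base, Ugt2b36 at 3 bases and Ugt2b1 at 25 bases. Over the whole coding sequence Ugt2b5 matched Ugt2b38 at 97.0% of bases, Ugt2b37 at 94.7%, Ugt2b36 at 88.4% and Ugt2b1 at 72.5%. Of all 76-base windows of the transcript, 30.1% for Ugt2b5, 27.8% for Ugt2b38 and 6.0% for Ugt2b37 occurred in another gene, against 0.0% for Ugt2b1, Ugt2b35 and Ugt2b36. Values of Ugt2b5, Ugt2b37 and Ugt2b38 are therefore uncertain where the authors' counting could split such reads. The windows, here and below, stand for single reads, while the reads came in pairs. The share of pairs with both mates in shared sequence was not counted.

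The Ugt1a genes are a second such set. They lie in 1 locus on chr1:88055388-88220002 (GRCm38, plus strand), where each gene has its own first exon and all share the later exons. The part of the exonic bases that belongs to 1 gene only ran from 17.3% for Ugt1a1 to 49.7% for Ugt1a6a, and between 57.7% and 100% of their 76-base windows occurred in another gene. Ugt1a6a matched Ugt1a6b at 98.4% of coding bases and the annotated Ugt1a7c transcript at 100%, and 100% of Ugt1a6a windows were shared, so these counts are uncertain too. Ugt3a1 and Ugt3a2 matched at 93.2% of coding bases, yet only 1.4% of the windows of either gene were shared. For Sult2a8 and Sult1b1 0.0% of windows were shared, and for Sult1a1 4.3%.

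The upstream sequences of the Ugt2b near copies are alike as well. They are shown because Ugt2b38 was called lower on the diet and Ugt2b5 and Ugt2b36 were not. Each line gives the 100 bases before the RefSeq start on GRCm38.p6, minus strand, with capitals for a shared block of 22 bases, at chr5:87140341-87140440 (Ugt2b5), chr5:87424204-87424303 (Ugt2b38) and chr5:87092556-87092655 (Ugt2b36).
Ugt2b5 upstream: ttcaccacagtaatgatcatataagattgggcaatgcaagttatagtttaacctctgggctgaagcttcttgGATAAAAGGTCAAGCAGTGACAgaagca
Ugt2b38 upstream: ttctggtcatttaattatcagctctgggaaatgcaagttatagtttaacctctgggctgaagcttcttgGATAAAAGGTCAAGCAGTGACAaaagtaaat
Ugt2b36 upstream: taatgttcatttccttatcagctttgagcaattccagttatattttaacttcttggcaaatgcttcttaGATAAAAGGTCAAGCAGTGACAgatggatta
The block was chosen as the longest stretch common to the 100 bases before the starts of these genes and of Ugt2b37. Its presence in these 4 windows was thus fixed by the choice. They were the only 4 of 32536 upstream windows in the RefSeq table that hold it (0.0123%). The block was picked from near copies, so its rarity elsewhere carries no weight of its own. It ends 6 bases before the start of Ugt2b5 and 9 bases before those of Ugt2b36 and Ugt2b38.

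The HNF1 half-site GTTAAT, read on both strands of the 250 bases before each start, was in 10 of the 32 windows of 29 UGT and SULT genes with a RefSeq entry, against 6.47% of all 32536 windows. Those genes were Ugt1a1, Ugt1a6a, Ugt1a9, Ugt1a10, Ugt2a3, Ugt3a1, Sult1a1, Sult1d1, Sult2a3 and Sult3a2. Such a match is a description of letters and no evidence of binding. The AhR core GCGTG was in 5 of the 32 windows and in 28.3% of all windows, the STAT5 element TTCNNNGAA in 2 and in 7.04%, and the antioxidant element TGACNNNGC in 0 and in 10.2%. No match of 1 motif overlapped a match of another. For Ugt1a1, at chr1:88211859-88211958 on the plus strand, and Ugt2a3, at chr5:87337196-87337295 on the minus strand, the 100 bases before the start are given with half-sites in capitals, since both genes were called lower on the diet.
Ugt1a1 upstream: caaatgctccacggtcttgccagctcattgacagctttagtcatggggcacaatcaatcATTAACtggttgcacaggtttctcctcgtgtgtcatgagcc
Ugt2a3 upstream: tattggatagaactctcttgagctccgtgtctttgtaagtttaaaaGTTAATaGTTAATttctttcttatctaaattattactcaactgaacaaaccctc
The Ugt1a1 window held 1 match, on the opposite strand, and the Ugt2a3 window held 2 matches separated by a single base.

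Library totals ran from 8462590 (chow replicate 1) to 20613777 (vehicle replicate 3) counts, with 15972613 the second lowest. Of the 34 genes, 25 (17 UGT and 8 SULT) had enough counts to be tested, and 9 did not. Levels are given as CPM, read counts scaled to a common library total after TMM adjustment. The livers carried the markers of their labelled tissue, but the summed CPM of 10 hepatocyte markers differed between groups. It was 142250 to 174280 in chow, 54751 to 73177 in vehicle, 64862 to 112650 in OA and 84135 to 119810 in OA-NO2 livers, and 5 of the 10 were called lower in vehicle than in chow. Of the markers of other cells, 6 of 7 recruited macrophage, 6 of 7 cholangiocyte and 7 of 8 stellate cell genes were called higher in vehicle than in chow, with recruited macrophage sums of 11.4 to 17.7 CPM in chow and 93.2 to 178 CPM in vehicle livers. Of 9 Kupffer cell genes 4 were called higher and 2 lower. Of 5 lymphocyte genes 1 was called higher (4 with library size alone, 2 with DESeq2). Of 5 endothelial genes 0 were called (2 higher with library size alone, 1 with DESeq2). Hepatocyte markers called lower were 4 with library size alone and 7 with DESeq2. Among all tested genes 11.1% were called higher and 8.16% lower with TMM, and 38.1% and 1.71% with library size alone. Those shares are not given for DESeq2. The summed CPM of kidney markers reached at most 1.90 and that of adipocyte markers at most 2.94 in any liver. The 4 intestinal epithelium markers in the table summed to between 190.54 and 370.48 CPM in every liver, and 0 of the 2 tested were called. OA replicate 3 stood apart from the other OA livers, with a hepatocyte sum of 112650 against 64862 and 70604 and a recruited macrophage sum of 41.1 against 207.52 and 149.47. In whole tissue, fewer hepatocytes and less RNA per hepatocyte cannot be told apart, and the part of these differences in the results below was not tested.

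In chow livers Ugt2b5 had the highest level per kilobase of exon, at 581 ± 145 CPM per kilobase (SD, n = 3). Sult2a8 (492 ± 155), Ugt2b36 (381 ± 113) and Sult1a1 (373 ± 88.4) came next on the same scale. A lower tier held Ugt2b1 (242 ± 72.9), Ugt2a3 (193 ± 41.0), Ugt3a2 (180 ± 40.4), Ugt2b34 (164 ± 44.8), Sult1d1 (117 ± 45.1) and Ugt2b35 (80.8 ± 7.64). Neighbours in this order differed by less than the larger of their SDs, apart from the steps from Sult1a1 to Ugt2b1 and from Ugt2b34 to Sult1d1. The order depends on the length used: per kilobase of exon that belongs to 1 gene only, Ugt1a1 was at 174 CPM in chow livers, above Ugt2b34 (164), and Sult1a1 (389) was above Ugt2b36 (381). In vehicle livers Ugt2b5 (353 ± 22.7 CPM per kilobase) and Ugt2b36 (323 ± 26.9) led, Sult1a1 followed at 172 ± 56.7, and Sult2a8 stood at 98.5 ± 31.8.

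**Figure D1:**
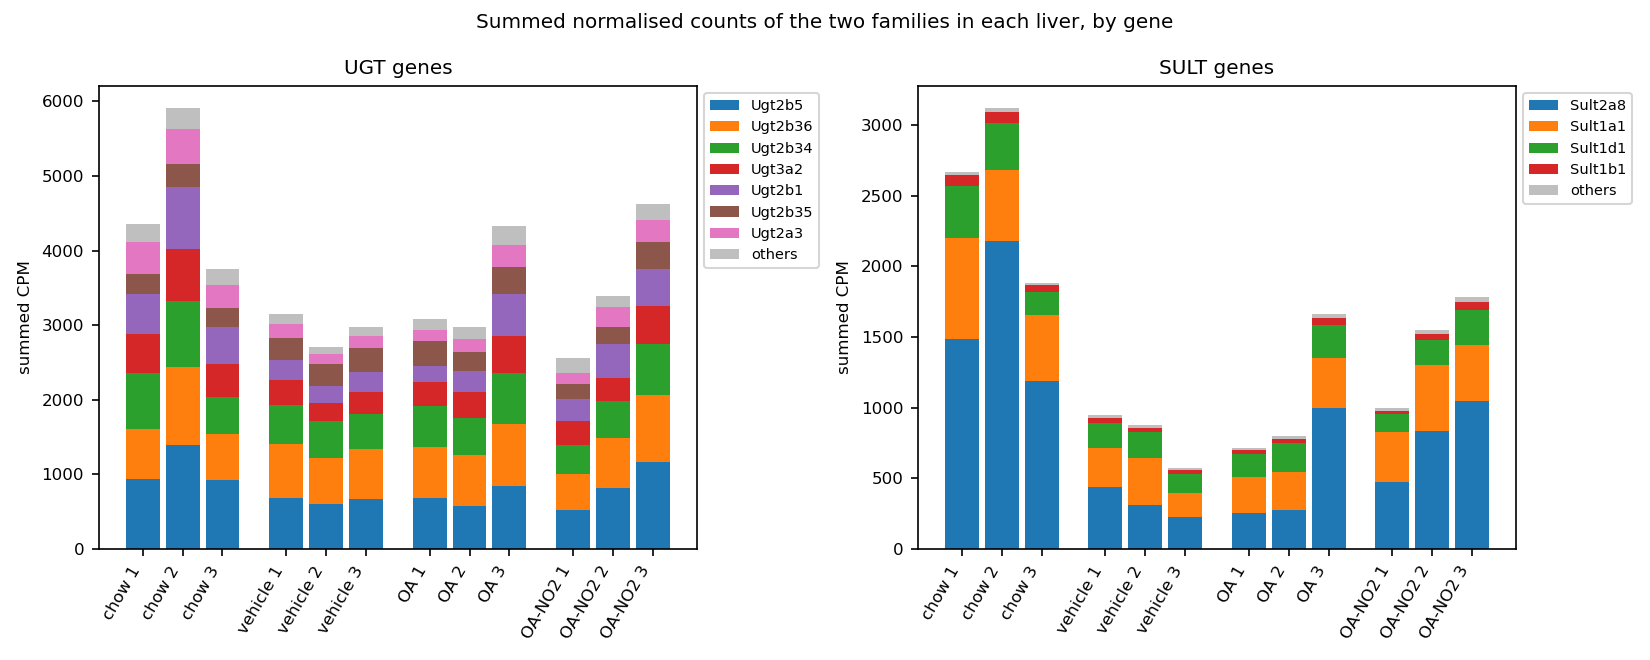
Summed normalised counts (CPM, vertical axis, from 0) of the UGT genes (left) and the SULT genes (right) in each of the 12 livers, with stacked colours for the most abundant genes and grey for all others. The SULT bars of the vehicle livers reach 575 to 951 against 1883.8 to 3120.7 in chow livers, and Sult2a8 is the largest block of every chow bar.

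Summed over each family, TMM-scaled counts were lower in every vehicle liver than in every chow liver; with library size alone this held for the SULT sum and not for the UGT sum. The SULT sum was 2670.8, 3120.7 and 1883.8 CPM in the chow livers and 951, 875 and 575 CPM in the vehicle livers. It was 713, 796 and 1661.7 CPM in the OA livers and 993, 1546.1 and 1780.2 CPM in the OA-NO2 livers. The UGT sum was 4360.5, 5910.5 and 3755.4 CPM in chow, 3148.4, 2703.9 and 2980.8 CPM in vehicle, 3080.8, 2974.4 and 4325.9 CPM in OA and 2555.2, 3394.4 and 4625.0 CPM in OA-NO2 livers. OA and OA-NO2 livers spread widely: their SULT sums stayed below all chow livers, and their UGT sums overlapped with both chow and vehicle. With library size alone the UGT sums were 3306.1, 4916.2 and 3075.8 CPM in chow and 3568.7, 3180.4 and 3424.9 CPM in vehicle livers, and the highest SULT sums of the OA (1589.2 CPM) and OA-NO2 livers (1645.5 CPM) passed the lowest chow liver (1542.9 CPM). These sums carry no test. Sult2a8 gave 62.8% of SULT counts in chow and 40.1% in vehicle livers, while Ugt2b5 gave 23.1% and 22.3% of UGT counts.

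Between vehicle and chow livers, 10 of the 25 tested genes were called lower (edgeR quasi-likelihood test, Benjamini-Hochberg adjusted p under 0.05 over all 14469 tested genes) and 0 were called higher. Among all tested genes 8.16% were called lower and 11.1% higher, 19.3% in all. The median log2 fold change of the 25 genes was -0.82, against -0.01 over all tested genes, and 19 of the 25 estimates were below 0. The called genes came from most branches: Ugt1a1 and Ugt1a5, Ugt2a3, Ugt2b1 and Ugt2b38, both Ugt3a genes, Sult1a1 and Sult1b1, and Sult2a8. For each of the 10 genes no vehicle liver reached the lowest chow liver. This separation is no support of its own, since the calls came from the same livers. Nor was it counted how many of all tested genes were separated in this way. The count of called genes was 6 when chow replicate 2, vehicle replicate 2 or vehicle replicate 3 was left out. Without chow replicate 1 it was 7. Shares of all tested genes called are not given for these fits. With libraries scaled by total counts alone, which moved the median of all genes by 0.51 in log2, 5 genes were called lower (Sult2a8, Ugt1a5, Ugt2a3, Ugt2b1 and Ugt3a1) and 3 higher (Sult1c2, Sult1e1 and Ugt2b35), where 1.71% of all tested genes were called lower and 38.1% higher.

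**Figure D2:**
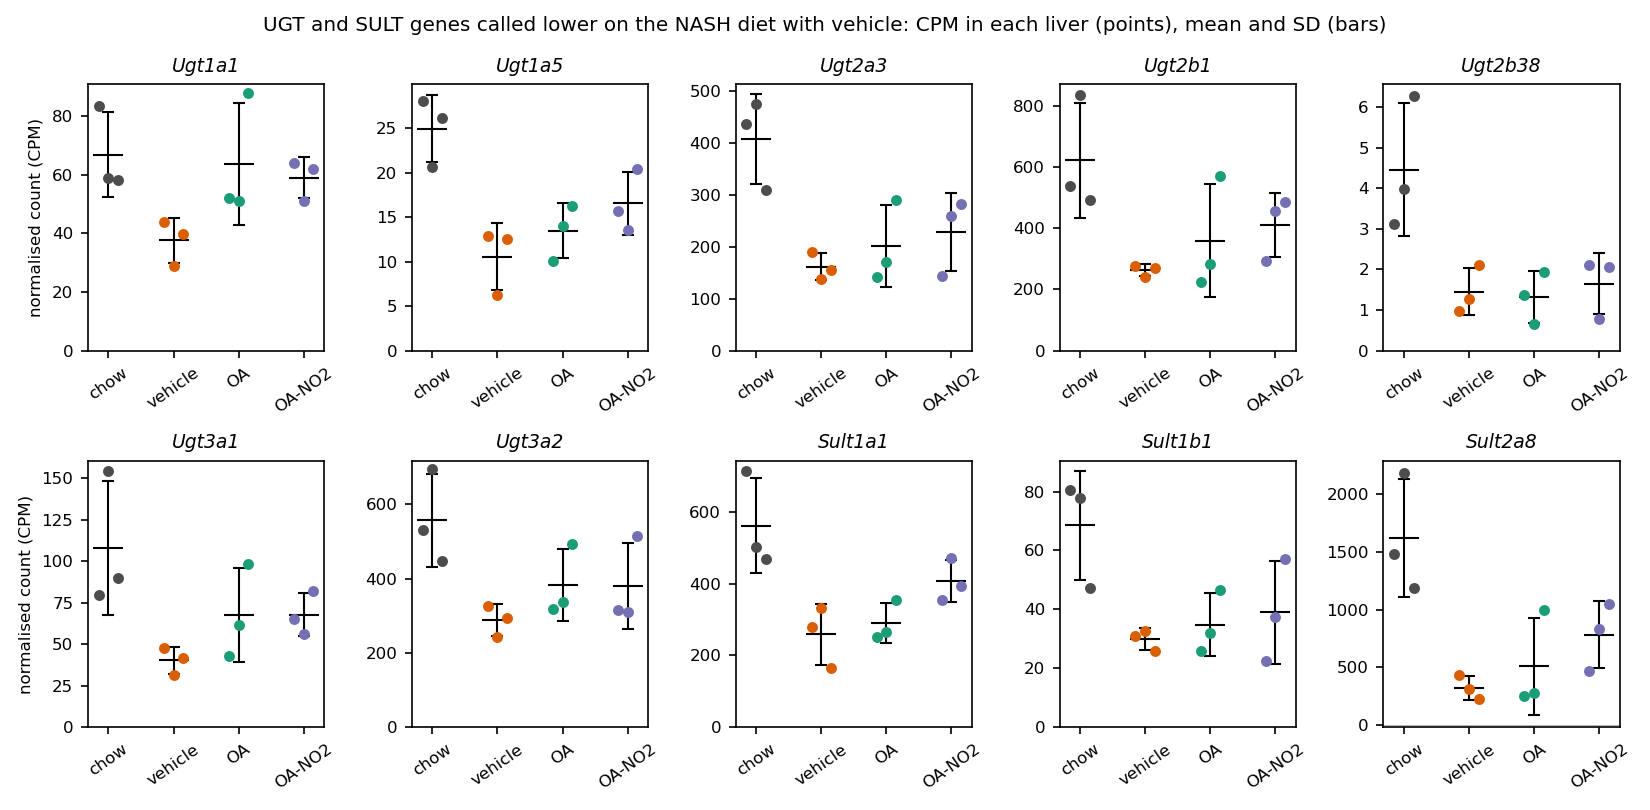
Normalised counts (CPM, vertical axis from about 0, its own scale in each panel) of the 10 genes called lower in vehicle than in chow livers, by group, with 1 point per liver, a long bar for the mean and short bars for the SD. In every panel the 3 vehicle points lie below the 3 chow points, and the highest OA point of Sult2a8, at 995, is OA replicate 3.

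In the Ugt1a locus, Ugt1a1, which conjugates bilirubin, was measured at 83.6, 58.8 and 58.4 CPM in chow livers and at 44.0, 29.0 and 39.9 CPM in vehicle livers. Its log2 fold change was -0.82 ± 0.23 (SE, adjusted p = 0.0265). Ugt1a5, a gene of the same locus, was measured at 28.1, 20.7 and 26.2 CPM in chow and at 13.0, 6.29 and 12.5 CPM in vehicle livers, a log2 fold change of -1.23 ± 0.27 (adjusted p = 0.00881). All chow livers were above all vehicle livers for both genes, which is no support beyond the calls made on the same livers. Call stability differed between them: Ugt1a5 kept its call under all 17 alternatives, whereas Ugt1a1 lost it with library size alone and without chow replicate 1, vehicle replicate 2 or vehicle replicate 3. The 4 other tested Ugt1a genes were not called. Ugt1a6a (-0.87, 95% interval -1.82 to 0.08) and Ugt1a6b (-0.32, -0.84 to 0.21) encode enzymes for flat phenols, Ugt1a9 had a log2 fold change of -0.82 (-1.99 to 0.34), and Ugt1a7c one of 0.73 (-0.24 to 1.70) from levels under 1 CPM.

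Of the Ugt2 genes, whose enzymes act on steroids, bile acids and many drugs, Ugt2a3, Ugt2b1 and Ugt2b38 were called. Ugt2a3 was at 437, 476 and 310 CPM in chow livers and at 190, 139 and 156 CPM in vehicle livers, with a log2 fold change of -1.33 ± 0.30 (adjusted p = 0.0101). Ugt2b1 was at 537, 837 and 492 CPM in chow and at 278, 241 and 271 CPM in vehicle livers (-1.24 ± 0.32, adjusted p = 0.0194). Ugt2b38, a low-level gene, had 3.12, 3.99 and 6.27 CPM in chow and 0.978, 1.28 and 2.11 CPM in vehicle livers (-1.63 ± 0.45, adjusted p = 0.026). Vehicle and chow livers did not overlap for any of these 3 genes, which is no support beyond the calls made on the same livers. Ugt2a3 kept its call under all 17 alternatives, Ugt2b1 lost it without chow replicate 2, vehicle replicate 2 or vehicle replicate 3, and Ugt2b38 lost it with library size alone and without chow replicate 2, chow replicate 3, vehicle replicate 1 or vehicle replicate 2.

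The most abundant Ugt2b genes were not called. Ugt2b5 was at 932, 1391.7 and 917 CPM in chow livers and at 686, 607 and 673 CPM in vehicle livers, without overlap, but missed the threshold at a log2 fold change of -0.72 (95% interval -1.31 to -0.14, adjusted p = 0.0788). DESeq2 and the fit on the compared groups alone called it lower, as did the fit without OA-NO2 replicate 1. Ugt2b34 was at 743, 879 and 498 CPM in chow and 520, 487 and 480 CPM in vehicle livers (-0.51, adjusted p = 0.146). Ugt2b36 was at 680, 1051.4 and 620 CPM in chow and 724, 613 and 660 CPM in vehicle livers (-0.24, -0.76 to 0.29). Chow and vehicle overlapped for both genes. For Ugt2b34 chow replicates 1 and 2 were above all vehicle livers, and for Ugt2b36 chow replicate 2 was. Ugt2b35 was at 259, 301 and 254 CPM in chow and 286, 285 and 314 CPM in vehicle livers (0.12, -0.32 to 0.57). Thus Ugt2b genes of similar coding sequence had unequal estimates: those of Ugt2b5, Ugt2b36 and Ugt2b38, which share the printed upstream block, were -0.72, -0.24 and -1.63, and that of Ugt2b37, which also has it, was 0.17 (-1.03 to 1.38). The differences between these genes were not tested.

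Both Ugt3a genes fell. The human enzymes of this branch use other sugars in place of glucuronic acid, N-acetylglucosamine in the case of UGT3A1. Ugt3a1 was at 79.4, 154 and 89.8 CPM in chow livers and at 47.4, 31.5 and 41.9 CPM in vehicle livers, a log2 fold change of -1.42 ± 0.31 (adjusted p = 0.00868) that kept its call under all 17 alternatives. Ugt3a2, the more abundant gene, was at 531, 694 and 448 CPM in chow and at 328, 242 and 294 CPM in vehicle livers (-0.95 ± 0.25, adjusted p = 0.02). Its call was lost with library size alone and without chow replicate 2, vehicle replicate 2 or vehicle replicate 3. Ugt8a, the ceramide galactosyltransferase known from myelin synthesis, had 82 counts over all libraries, among them 25 and 14 in vehicle replicates 2 and 3 and 3, 1 and 1 in chow livers (log2 fold change 2.19, -0.15 to 4.53, adjusted p = 0.173).

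Among the SULT1 genes, the phenol sulfotransferase Sult1a1 was at 715, 503 and 470 CPM in chow livers and at 280, 332 and 165 CPM in vehicle livers. The log2 fold change was -1.12 ± 0.26 (adjusted p = 0.0113), and the call was lost with library size alone and without chow replicate 1. Sult1b1, which sulfates thyroid hormones, was at 80.6, 77.8 and 47.1 CPM in chow and at 31.1, 32.8 and 25.8 CPM in vehicle livers (-1.19 ± 0.31, adjusted p = 0.0194). Its call was lost with library size alone and without chow replicate 1, chow replicate 2 or vehicle replicate 3. Sult1d1, an enzyme for catecholamines, was at 370, 330.5 and 161 CPM in chow and 178, 182 and 140 CPM in vehicle livers, which overlap (-0.78, -1.42 to -0.15, adjusted p = 0.0779). It was called lower by DESeq2 and without chow replicate 3. Sult1e1, the estrogen sulfotransferase, had 0.936, 1.24 and 0.192 CPM in chow and 5.36, 2.40 and 2.11 CPM in vehicle livers, without overlap (2.11, 0.44 to 3.77, adjusted p = 0.073). Called higher under 5 of the 17 alternatives, DESeq2 among them, it was the only SULT gene besides Sult1c2 (0.49, -0.22 to 1.2) with an estimate above 0.

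Sult2a8, a bile acid sulfotransferase of mouse liver, had the lowest log2 fold change of the 25 genes. It was at 1482, 2180.5 and 1187.5 CPM in chow livers and at 434, 309 and 227 CPM in vehicle livers. Every chow liver was thus above every vehicle liver, and the log2 fold change was -2.32 ± 0.49 (95% interval -3.39 to -1.26, adjusted p = 0.00832), a level 5.00-fold lower. The call held under all 17 alternatives, whose estimates ran from -2.59 to -1.81. Sult2a7, next to it on chromosome 7, was at 3.79 ± 1.92 CPM in vehicle and 7.25 ± 1.75 CPM in chow livers (SD, n = 3; -0.92, adjusted p = 0.127). Sult5a1, a little-studied member described here after its values were seen, was at 4.99, 7.09 and 5.70 CPM in chow and at 2.28, 0.746 and 0.592 CPM in vehicle livers (-2.30, -4.03 to -0.58, adjusted p = 0.0601), and was called lower under 5 of the 17 alternatives.

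**Figure D3:**
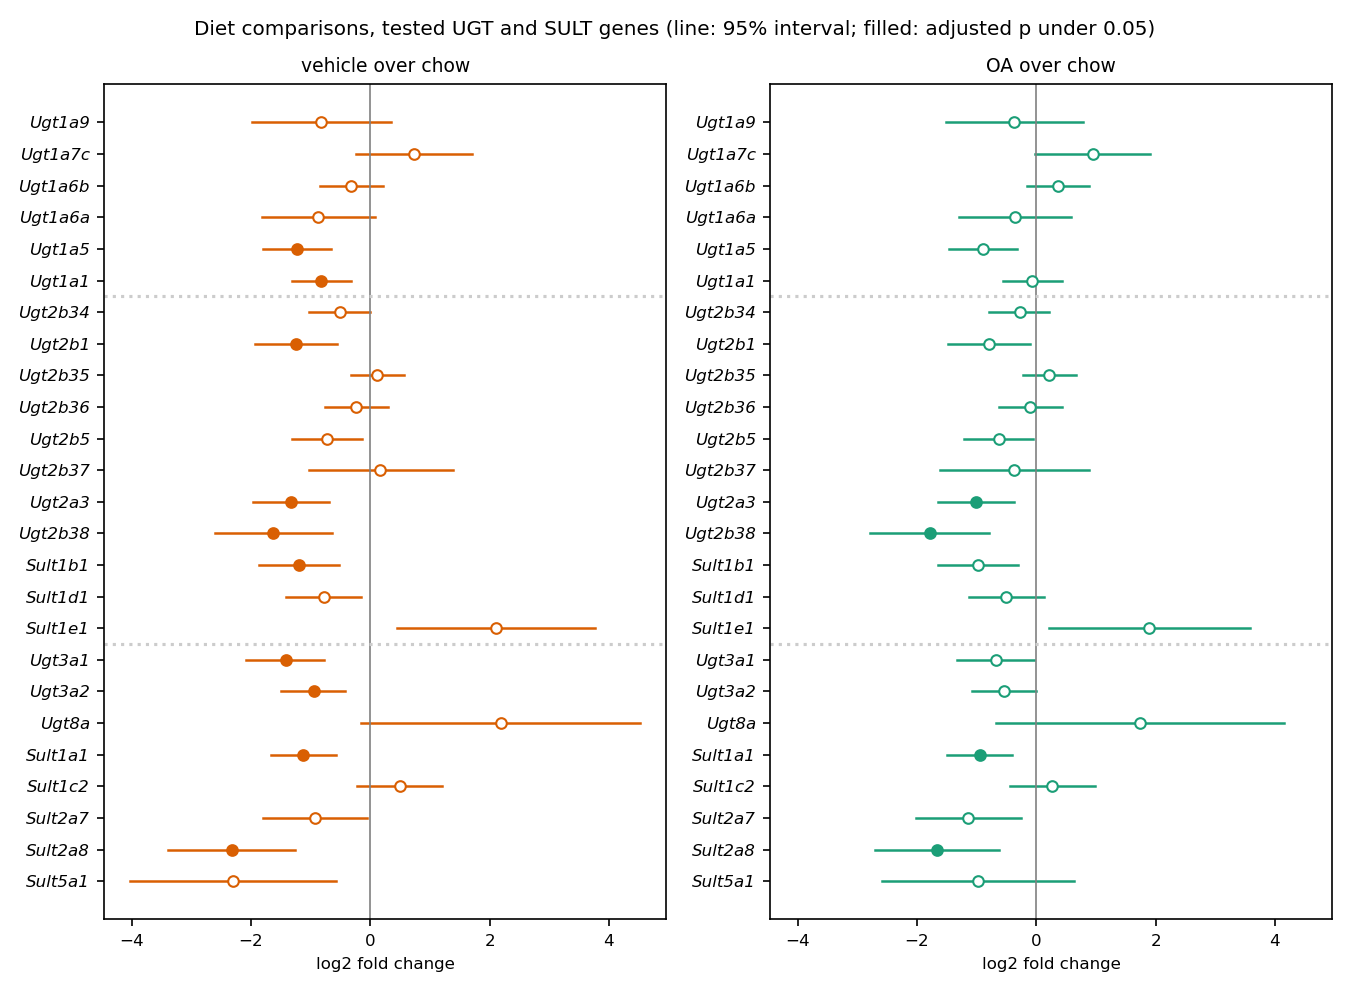
Log2 fold change (horizontal axis) of each tested gene in vehicle over chow livers (left) and OA over chow livers (right), with its 95% interval as a line and a filled point where the gene was called. Dotted lines part the genes of the Ugt1a locus, those of the chromosome 5 cluster and all others; the filled points, 10 at left and 4 at right, all lie left of 0.

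Between OA and chow livers, 4 of the 25 genes were called lower and 0 higher, where 2.23% of all tested genes were called lower and 6.33% higher, 8.56% in all. They were Sult2a8 (log2 fold change -1.67 ± 0.48, adjusted p = 0.049), Ugt2b38 (-1.78 ± 0.46, adjusted p = 0.0316), Ugt2a3 (-1.01 ± 0.30, adjusted p = 0.0496) and Sult1a1 (-0.95 ± 0.25, adjusted p = 0.0354). Their CPM in OA livers were 254, 278 and 995 for Sult2a8, 1.38, 0.666 and 1.93 for Ugt2b38, 142, 172 and 291 for Ugt2a3, and 252, 265 and 354 for Sult1a1. Replicate 3 was the highest OA liver for all 4, and none of its values reached a chow liver. This comparison rested on single libraries: without OA replicate 3 the count rose to 9 and the Sult2a8 log2 fold change was -2.64. The count fell to 0 without chow replicate 1, chow replicate 2, OA replicate 1 or OA replicate 2. It fell to 2 without vehicle replicate 1, vehicle replicate 3 or OA-NO2 replicate 2. The shares of all tested genes called in these fits are not given here. With library size alone, 2 genes were called lower and 4 higher, beside 0.878% and 25.2% of all tested genes. Ugt1a1 was at 52.1, 51.2 and 87.9 CPM in OA livers, and its log2 fold change over chow was -0.07 (-0.56 to 0.43).

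OA-NO2 livers differed from chow livers in 0 of the 25 genes by edgeR, where 0.684% of all tested genes were called in either direction. At an unadjusted p under 0.05 there were 9, beside 2725 of all 14469 tested genes. DESeq2 called 1 of the 25, Ugt2b38, lower, and the share of all tested genes it called is not given here. Sult2a8 was at 473, 832 and 1047.3 CPM in OA-NO2 livers, all below the lowest chow liver, with a log2 fold change of -1.04 (-2.07 to -0.02, adjusted p = 0.258). The Ugt2b38 estimate was -1.46 (-2.44 to -0.48, adjusted p = 0.127), and that of Ugt2a3 was -0.83 (-1.47 to -0.20, adjusted p = 0.166). Sult1a1, at 356, 472 and 394 CPM, overlapped with chow by 1 library (-0.47, -1.01 to 0.08).

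Among livers of the NASH diet, no UGT or SULT gene passed the threshold between infusions in the edgeR fit of all libraries. For OA over vehicle 0 of 25 genes were called, with 3 at an unadjusted p under 0.05 and 0 by DESeq2. For OA-NO2 over vehicle 0 were called, with 8 at an unadjusted p under 0.05, and for OA-NO2 over OA 0, with 1. Of all 14469 tested genes, 564, 2281 and 1740 had an unadjusted p under 0.05 in these 3 comparisons, in the same order. The shares of all tested genes called in either direction were 0.0%, 0.0207% and 0.00691%. For OA-NO2 over vehicle, 3 alternative fits each called 1 gene, Sult5a1, higher. They were those without the filter on low counts, on the compared groups alone and without OA replicate 3. The last also called it in OA-NO2 over OA. The shares above do not apply to these 3 fits, and theirs are not given here.

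The 10 genes called lower on the diet had these values under the fatty acids, in comparisons that share the vehicle libraries with the diet comparison. In OA-NO2 over vehicle their log2 fold changes ran from 0.16 (Ugt2b38) to 1.28 (Sult2a8), with a median of 0.64 and adjusted p from 0.211 to 0.891. In OA over vehicle they ran from -0.16 (Ugt2b38) to 0.76 (Ugt1a1), with a median of 0.38 and adjusted p from 0.9746 to 0.9822. The medians over all tested genes, which were not chosen by a call, were 0.02 and 0.00. Because the vehicle libraries enter both, genes chosen as low in them tend to estimates above 0. Neither the sign of these estimates nor their distance from those medians carries weight of its own. The 95% interval of OA-NO2 over vehicle was 0.25 to 2.31 for Sult2a8 (adjusted p = 0.231), 0.11 to 1.2 for Sult1a1 (0.65, adjusted p = 0.243) and 0.15 to 1.15 for Ugt1a1 (0.65, adjusted p = 0.211).

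Ugt1a1 was at 64.2, 51.0 and 62.1 CPM in OA-NO2 livers, so both fatty acid groups lay above the vehicle range of 29.0 to 44.0 CPM. The gene was called low in those same vehicle livers, so this separation carries no weight of its own. Ugt1a6a was at 7.72, 10.05 and 2.72 CPM in OA-NO2 livers and at 2.98, 3.78 and 1.69 CPM in vehicle livers (1.29, 0.37 to 2.21, adjusted p = 0.193), with 1 OA-NO2 liver inside the vehicle range. Ugt1a5 was at 15.7, 13.6 and 20.5 CPM in OA-NO2 livers (0.64, 0.08 to 1.21) and at 10.1, 13.99 and 16.3 CPM in OA livers (0.34, -0.23 to 0.91). None of these passed the threshold. The hepatocyte marker sum was also higher in each OA-NO2 liver than in each vehicle liver, and its part in these values was not tested.

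For the other called genes the fatty acid livers were as follows. Ugt2b1 was at 225, 283 and 570 CPM in OA and at 292, 457 and 487 CPM in OA-NO2 livers, and Ugt3a1 was at 42.8, 61.6 and 98.2 CPM and at 65.4, 56.1 and 82.0 CPM. Ugt3a2 was at 317, 336 and 494 CPM in OA and at 316, 311 and 514 CPM in OA-NO2 livers. Sult1b1 was at 25.8, 32.1 and 46.5 CPM in OA and at 22.3, 37.6 and 57.02 CPM in OA-NO2 livers. For Ugt2b1, Ugt3a1, Ugt3a2 and Sult1b1, replicate 3 was the highest liver of both fatty acid groups. The same held for Ugt2a3 (143, 260 and 283 CPM in OA-NO2 livers), Ugt1a5 and Sult2a8. Replicate numbers name mice and pair none. Ugt2b38 was at 2.11, 0.777 and 2.05 CPM in OA-NO2 livers, within the range of the vehicle livers apart from replicate 2.

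Sult5a1 had the largest estimate above 0 of the infusion comparisons. It was at 6.43, 9.53 and 9.06 CPM in OA-NO2 livers, all above the vehicle livers (0.592 to 2.28 CPM), a log2 fold change of 2.78 (1.08 to 4.48, adjusted p = 0.164, and from 0.0283 to 0.473 over the alternatives). OA livers were at 0.255, 1.23 and 7.83 CPM. Replicate 3 was thus within the OA-NO2 range and the other OA livers were not. OA-NO2 over OA was 1.45 (-0.13 to 3.03, adjusted p = 0.447), and without OA replicate 3 it was 3.49 with an adjusted p of 0.026.

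**Figure D4:**
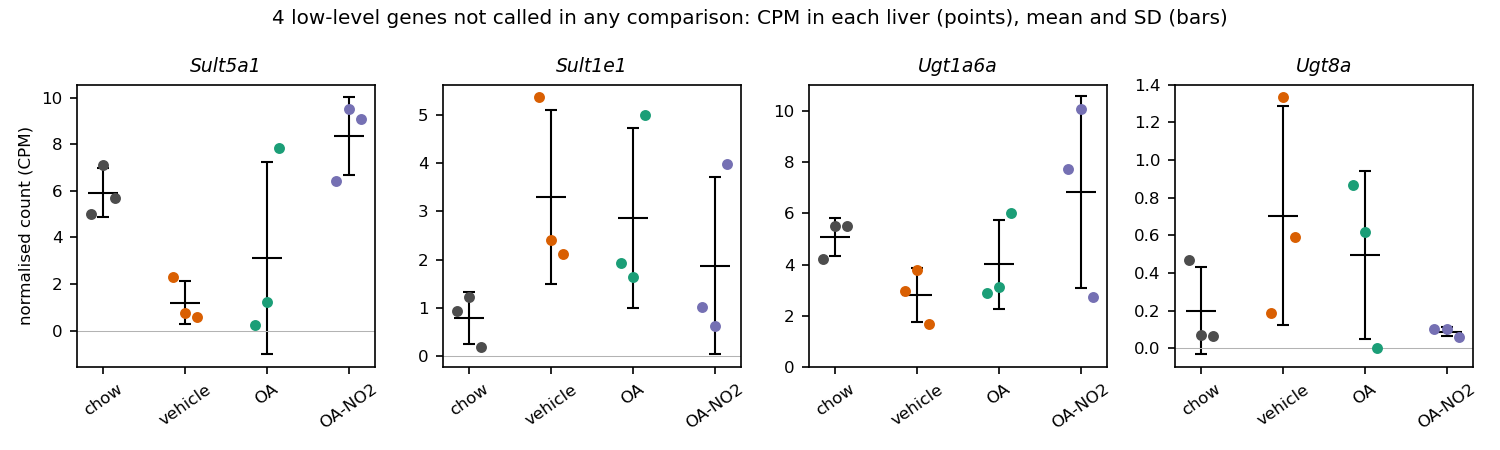
Normalised counts (CPM, vertical axis) of Sult5a1, Sult1e1, Ugt1a6a and Ugt8a, 4 low-level genes called in no comparison, with 1 point per liver, a long bar for the mean and short bars for the SD, which can reach below 0. The 3 OA-NO2 points of Sult5a1, from 6.43 to 9.53, lie above all vehicle points, and 1 of its OA points lies among them.

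Oleic acid and nitro-oleic acid differ by a nitro group and were infused at the same dose, which makes 1 pair of compounds to compare in 25 genes. No gene was called, and intervals show what differences remain possible. They were, for 6 of the genes: Ugt2b5 (log2 fold change 0.25, -0.33 to 0.84), Ugt2b36 (-0.09, -0.62 to 0.43), Ugt2b34 (-0.15, -0.66 to 0.35), Ugt2b35 (-0.21, -0.65 to 0.24), Ugt3a2 (-0.01, -0.54 to 0.52) and Ugt1a1 (-0.11, -0.60 to 0.38). For Sult2a8 the estimate was 0.62 (-0.39 to 1.64), or 1.57 without OA replicate 3, and for Ugt2b1 it was 0.20 (-0.49 to 0.88). For Sult1a1, OA livers were at 252 to 354 CPM and OA-NO2 livers at 356 to 472 CPM, without overlap (0.49, -0.06 to 1.03, adjusted p = 0.458). How many of all tested genes had no overlap was not counted. Ugt8a, at 2, 2 and 1 counts in OA-NO2 livers and 17, 12 and 0 in OA livers, had an interval of -4.73 to -0.06 (adjusted p = 0.409).

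**Figure D5:**
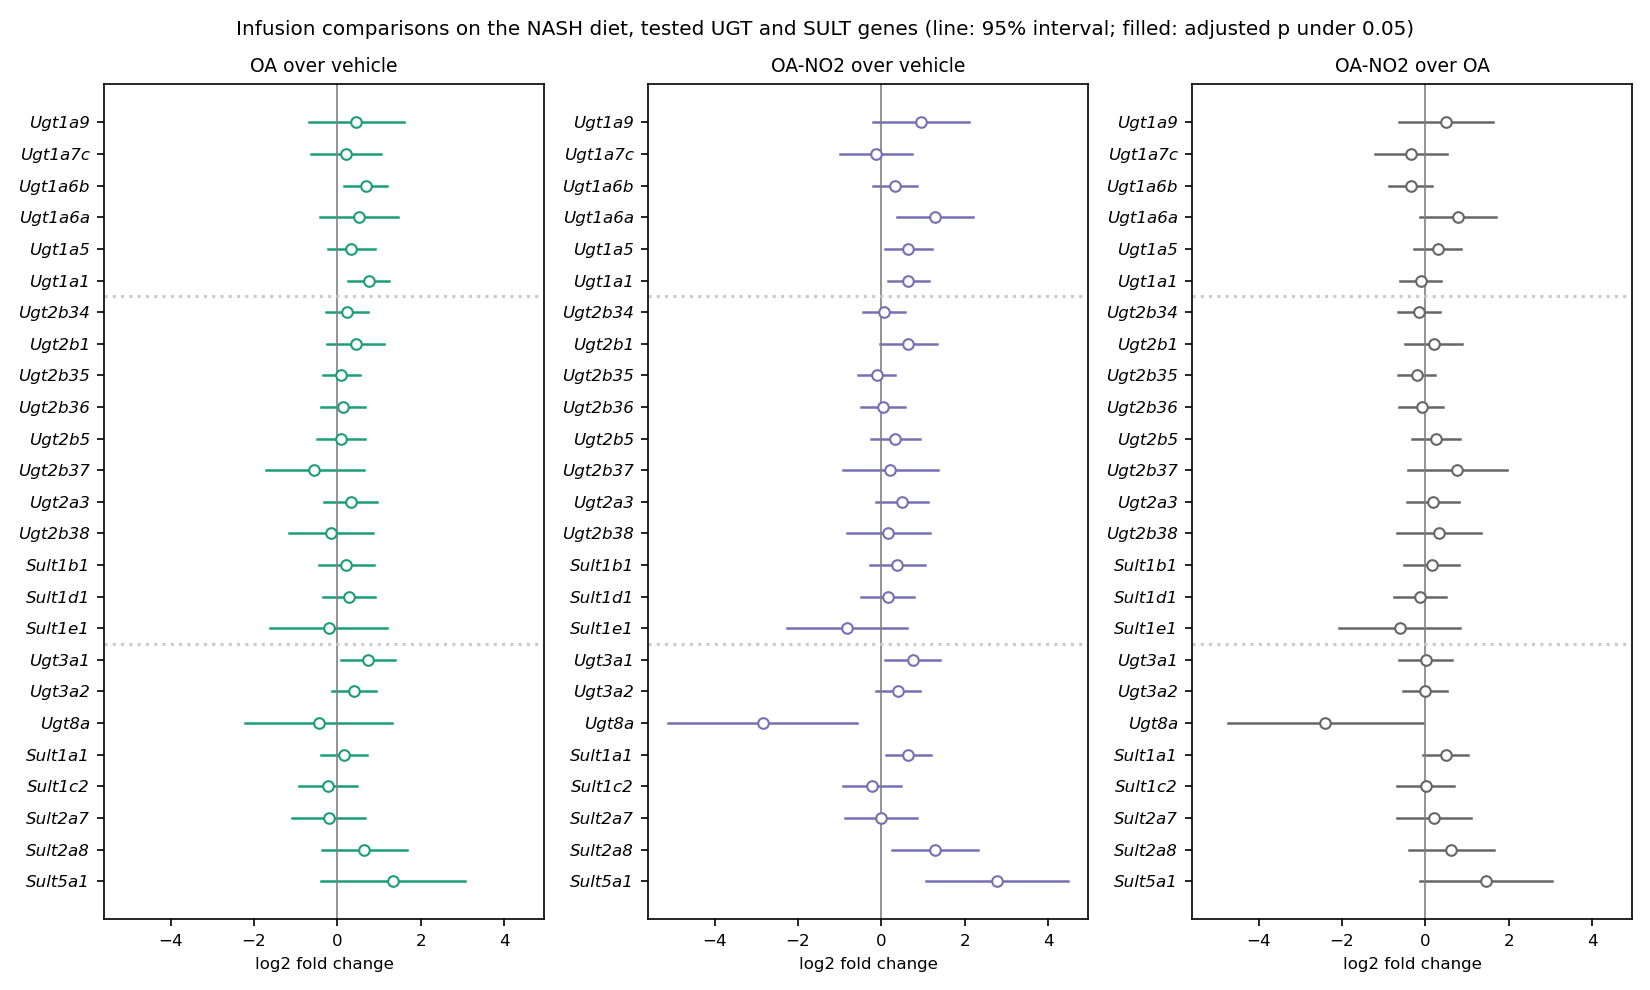
Log2 fold change (horizontal axis) of each tested gene in OA over vehicle, OA-NO2 over vehicle and OA-NO2 over OA, with its 95% interval as a line. No point is filled, since no gene was called, and the widest intervals belong to the low-level genes Ugt8a and Sult5a1.

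For the abundant genes that were not called on the diet, OA and OA-NO2 livers overlapped with vehicle livers. Ugt2b5 was at 678, 570.1 and 845 CPM in OA and at 517, 810.1 and 1166.2 CPM in OA-NO2 livers, and Ugt2b36 at 681, 689 and 828 CPM and at 482, 677 and 902 CPM. Ugt2b34 was at 554, 501 and 686 CPM in OA and at 396, 490 and 679 CPM in OA-NO2 livers, and Ugt2b35 at 338, 257 and 355 CPM and at 213, 235 and 373 CPM. Sult1d1 was at 166, 203 and 239 CPM in OA and at 128, 178 and 249 CPM in OA-NO2 livers.

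The untested genes had between 2 and 41 counts over the 12 libraries. Ugt1a2 was absent from all 3 chow livers, had 1, 0 and 0 counts in vehicle and 1, 0 and 2 in OA livers, and 6, 5 and 3 in OA-NO2 livers. Ugt1a10 had 5, 5 and 2 counts in chow livers and 9, 4 and 4 in OA-NO2 livers. Sult3a1, an amine sulfotransferase, had 22 counts, of which 1, 4 and 9 were in chow livers. Sult2b1, the cholesterol sulfotransferase of skin, had 16, Sult6b1 17 and Sult4a1, known from brain, 11. Sult2a2, Sult3a2 and Sult2a3 had 6, 4 and 2 counts. No level can be set for these genes at this depth.

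Of 26 genes for the donors, sulfate supply, deconjugation and transport of these reactions, 24 were tested, and 4 were called higher and 4 lower in vehicle than in chow livers, beside 11.1% and 8.16% of all tested genes. Ugdh, which makes UDP-glucuronic acid, rose by a log2 fold change of 0.76 ± 0.19 (adjusted p = 0.016), while Papss2, which makes the sulfate donor PAPS, fell by 1.2 ± 0.30 on the log2 scale (adjusted p = 0.017). Papss1 was not called (0.73, 0.14 to 1.33, adjusted p = 0.0802). The glucuronidase gene Gusb (0.60 ± 0.18) and the arylsulfatase gene Arsa (0.93 ± 0.20) rose, and so did the efflux pump Abcc4 (1.08 ± 0.27). The uptake carriers Slco1a1 (-3.93 ± 0.60, adjusted p = 0.00254; DESeq2 estimated -3.92 and gave no adjusted p), Slco1a4 (-1.18 ± 0.39, not called with RLE size factors, adjusted p = 0.0508, or library size alone) and Slco2b1 (-0.42 ± 0.13, turning to 0.10 with library size alone) fell. With library size alone 12 of the list were called higher and 2, Papss2 and Slco1a1, lower, beside 38.1% and 1.71% of all tested genes. In OA over chow, Arsa (0.82), Abcc4 (0.95) and Slco1a1 (-2.91) were called. None of the 24 was called in an infusion comparison.

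Of 22 regulators of UGT and SULT genes and their marker targets, 21 were tested, and 2 were called higher and 4 lower in vehicle than in chow livers. Those counts stand beside 11.1% and 8.16% of all tested genes. The hepatocyte factor Hnf4a (-0.62 ± 0.18, adjusted p = 0.0278), the bile acid receptor FXR gene Nr1h4 (-0.60 ± 0.17), the estrogen receptor Esr1 (-1.11 ± 0.29) and the growth hormone receptor Ghr (-0.92 ± 0.27) fell. With library size alone these 4 genes were not called (-0.09, -0.08, -0.59 and -0.40). Of the list, 5 were then called higher and 0 lower, beside 38.1% and 1.71% of all tested genes. Cyp3a11, a target of PXR (1.61 ± 0.38, adjusted p = 0.0133), and Nqo1, a target of NRF2 (0.81 ± 0.24, adjusted p = 0.0313), rose. The receptor genes Nr1i2 (PXR, -0.58, adjusted p = 0.06) and Nr1i3 (CAR, -1.01, adjusted p = 0.0853) were not called by edgeR. DESeq2 called both lower (adjusted p = 0.0443 and 0.0447), among 6 genes of the list called lower by that tool. The share of all tested genes that DESeq2 called lower is not given here. With library size alone their estimates were -0.05 and -0.49, and neither was called. In OA over chow Cyp3a11 alone was called, at 1.56. No gene of this list was called in an infusion comparison, where the estimate for Nr1i3 in OA-NO2 over vehicle was 1.5 (0.66 to 2.34, adjusted p = 0.158), from 14.6 ± 7.01 to 41.3 ± 9.41 CPM (SD, n = 3).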

How the data were processed

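Liver RNA of 12 mice was sequenced, 1 library each. Per the labels' protocols, RNA was extracted with Trizol, libraries were made with an mRNA kit and read as 76-base pairs, and reads were trimmed. Per the submitters' processing notes, the tools were Trimmomatic 0.35, HISAT2 2.1.0, SAMtools 1.2 and HTSeq, and the genome build was GRCm38. How strand and ambiguous reads were treated, and with which annotation, is not given in the sources used here. Raw, unnormalised counts per gene were deposited by the authors in 1 table, and 0 columns were left unmapped.

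Symbols were found for 24914 of 24983 gene identifiers; 0.0143% of counts fell on the other 69. Genes were filtered with edgeR 4.0.16 in R 4.3.3 (minimum count 10, minimum total 15), which left 14469. TMM-scaled counts of all 12 libraries entered 1 quasi-likelihood fit with a coefficient per group, contrasts were adjusted by Benjamini-Hochberg over all 14469 genes, and the threshold for a call was 0.05. The common biological coefficient of variation came to 0.226. SEs are approximate (log2 fold change over the root of F), and intervals are 95%. The 6 pairwise comparisons of the 4 groups were made. The script was tested on simulated data. No 2 replicates were alike within sampling noise (lowest chi-square per degree of freedom 24.3). Mice differ by ear tag and were numbered within a group in order of deposit.

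Values per library are given for members called in any comparison and for the 10 of highest mean CPM; the named genes of the 2 pathway lists are those called, apart from Papss1, Nr1i2 and Nr1i3, chosen after their values were seen, as were Sult1e1, Ugt1a6a and Ugt8a. The members and lists were chosen with earlier results of these data known. Alternatives were RLE size factors, library size alone, no filter on low counts, the compared groups only, DESeq2 1.42.0 and leaving out each mouse. Coordinates, exons and transcripts are from GENCODE M21 (GRCm38), and upstream windows from RefSeq (GRCm38.p6), which matched 29 members.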

Additional observations from a re-analysis of the deposited data

How the results depend on the processing

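Values for the members under 17 alternatives kept their direction and side of the threshold in 611 of 696 instances over 41 results; 55 lost and 22 gained a call, and 8 reversed. In vehicle over chow, library size alone gave 0.20 for Ugt1a6b, 0.01 for Ugt2b34 and 0.28 for Ugt2b36 in log2. With 1 mouse left out, Ugt2b36 ran from -0.38 to 0.03 (above 0 without chow replicate 2) and Ugt2b37 from -0.29 to 0.61 (-0.05 without chow replicate 1, -0.29 without vehicle replicate 3). In OA over vehicle, Sult2a8 ran from -0.31 to 0.98 and Sult5a1 from -0.72 to 2.19, both lowest without OA replicate 3. The cause was not tested.

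Leaving out 1 mouse at a time, called members ranged from 6 to 11 for vehicle over chow and 0 to 9 for OA over chow. They ranged from 0 to 1 for OA-NO2 over vehicle and 0 to 1 for OA-NO2 over OA. How far calls among all tested genes moved in these fits is not given. With no filter on low counts or the compared groups only, OA-NO2 over vehicle had 1 called member, and DESeq2 gave 1 for OA-NO2 over chow. Shares of all tested genes are not given for these fits either. With library size alone the mean summed UGT level was 3391.4 CPM in the vehicle group and 3766.0 CPM in chow, and the livers of the 2 groups overlapped.

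No paired analysis was possible because the labels give ear tags and no replicate numbers shared between groups. With 3 mice a group, and levels of a few CPM for Sult5a1, Ugt8a and Ugt2b38, intervals are wide.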
